A study of Mus musculus with 40 samples.

Results

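Induced regulatory T cells at rest were compared with activated conventional T cells, by RNA-seq of 3 libraries of each. These 6 libraries were chosen by the names of their columns in the deposited table, out of 24 RNA-seq libraries there, in a series of 40 samples. The resting iTregs came from spleens of C57BL/6 mice, 6 weeks old, that carry a fluorescent reporter of *Foxp3*. Naive CD4+ T cells that were negative for the reporter were grown for 4 days on plate-bound anti-CD3 (0.5 µg per ml) and anti-CD28 (1 µg per ml), with 2 ng per ml TGF-β and 200 U per ml IL-2. Reporter-positive cells were then sorted and rested for 1 day with IL-2. The activated Tconvs, conventional CD4+ T cells of reporter mice 2 to 4 months old, had been activated through their antigen receptor. How and for how long they were activated is not given in the sources used here. Both groups had thus seen stimulation of the T cell receptor (TCR), and the comparison asks which functions went with iTreg induction. Beside the induction with TGF-β, mouse age differs between the groups. A start from sorted naive cells is given for the iTregs alone. So are the 4 days of induction culture and the sort of reporter-positive cells. A day of rest and added IL-2 are given for the iTregs, and for Tconvs only in other assays of the study. Whether the Tconvs sequenced here had either is not given. What each of these contributes cannot be told apart. Other groups serve below as points of reference, each with 3 libraries. Resting Tconvs, and thymic Tregs (tTregs) both resting and activated, came from reporter mice 2 to 4 months old, so that among the 5 groups fitted together only the iTregs came from mice 6 weeks old. The remaining groups were iTregs restimulated through the TCR and CD28, alone, with cyclosporin A (CsA) or with an inhibitor of the calcium channel ORAI. Neither the labels nor the methods say whether replicates were separate animals or cultures, so p-values measure only the spread between these samples, which may be technical.

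Tregs restrain other T cells, and Foxp3 is the transcription factor that defines them. Outside the thymus, naive T cells can turn on *Foxp3* when TCR signals meet TGF-β and IL-2, the route that iTreg cultures use. A TCR signal alone drives calcium entry, NFAT, AP-1 and NF-κB, and activated conventional T cells make and answer interferons, which act through STAT proteins on promoters that hold an interferon-stimulated response element (ISRE). Dividing T cells also raise glycolysis, in part through the transcription factor HIF-1, which binds hypoxia response elements (HRE).

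The 6 libraries held 10427000 to 15685234 reads on genes, and 12706 to 13230 genes above 0. Values are counts divided by 1 size factor per library (normalized counts), and 3 reads, used as a floor, were worth 2.12 to 3.16 normalized counts. Replicates of a group differed by 4.26 to 16.4 times the counting variance, most for resting iTreg replicate 3, and none was a copy of another. The log2 difference used below is the mean of log2(normalized count + 1) in resting iTregs minus that in activated Tconvs, given with its standard error (SE), and folds are on the same scale, which understates changes of low genes. The SE and p-values come from 1 limma fit of 15 libraries in 5 groups. They therefore rest on the spread within all 5 groups and not within these 6 libraries alone. A gene was called when limma's Benjamini-Hochberg adjusted p was under 0.05 and the difference was over 0.5 in size. Of 11495 genes tested, 4784 (41.6%) were called, 2634 (22.9%) of them higher and 2150 (18.7%) lower in resting iTregs. This split depends on scaling, since quantile normalization gave 2095 higher and 2835 lower and moved the median difference of all genes from 0.02 to -0.11. Because so many genes differed, each list below is read against 22.9% and 18.7%. Of all genes tested, 4102 had every iTreg library above every Tconv library, and 3685 had every one below. Of the 4784 genes called, 4711 had libraries that did not overlap. Most genes named below were chosen with this as a criterion, so a lack of overlap adds no support to their calls. Counts of list members carry no test, and the lists were drawn up with earlier results of these data known. Reads were not counted by strand, so overlapping genes cannot be told apart; of the genes named below, *Cd247* (60.3%), *Gbp10* (46.3%), *Foxp3* (31.5%), *Tnfrsf18* (27.2%), *Stat4* (26.7%), *Ifng* (25.9%), *Shroom3* (24.9%) and *Bnip3* (22.2%) share over 20% of their exon bases with another gene.

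The lists parted widely. Genes of mitosis, of the hypoxia response and of glycolysis, and core Treg genes were mostly higher in resting iTregs. Interferon-stimulated genes, guanylate-binding proteins (GBPs), genes of MHC class I presentation and NF-κB genes were mostly lower.

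**Figure D1:**
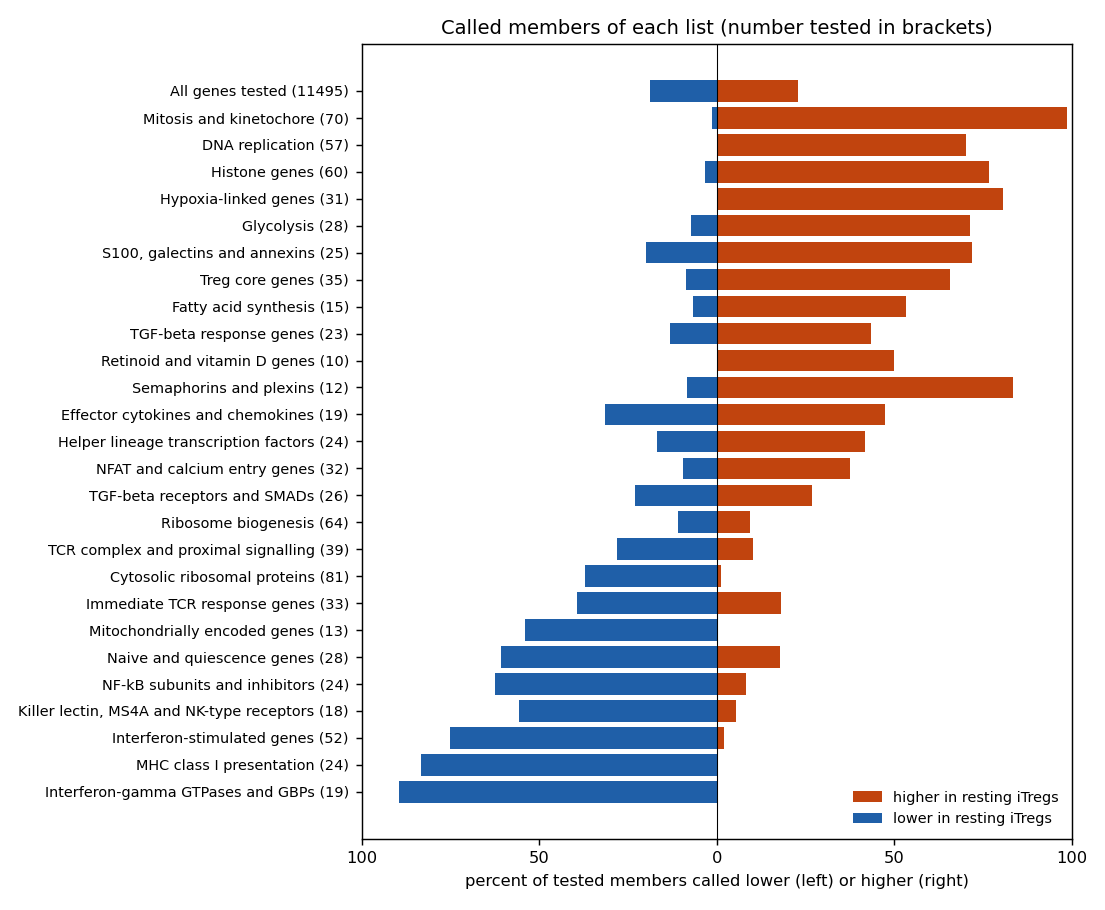
Share of tested members of 26 gene lists called lower (blue, left) or higher (red, right) in resting iTregs than in activated Tconvs, with all 11495 genes in the top bar; the number tested is in brackets. Mitosis genes, semaphorins and plexins, and hypoxia-linked genes reach furthest right, and the interferon-gamma GTPases and GBPs furthest left.

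**Figure D2:**
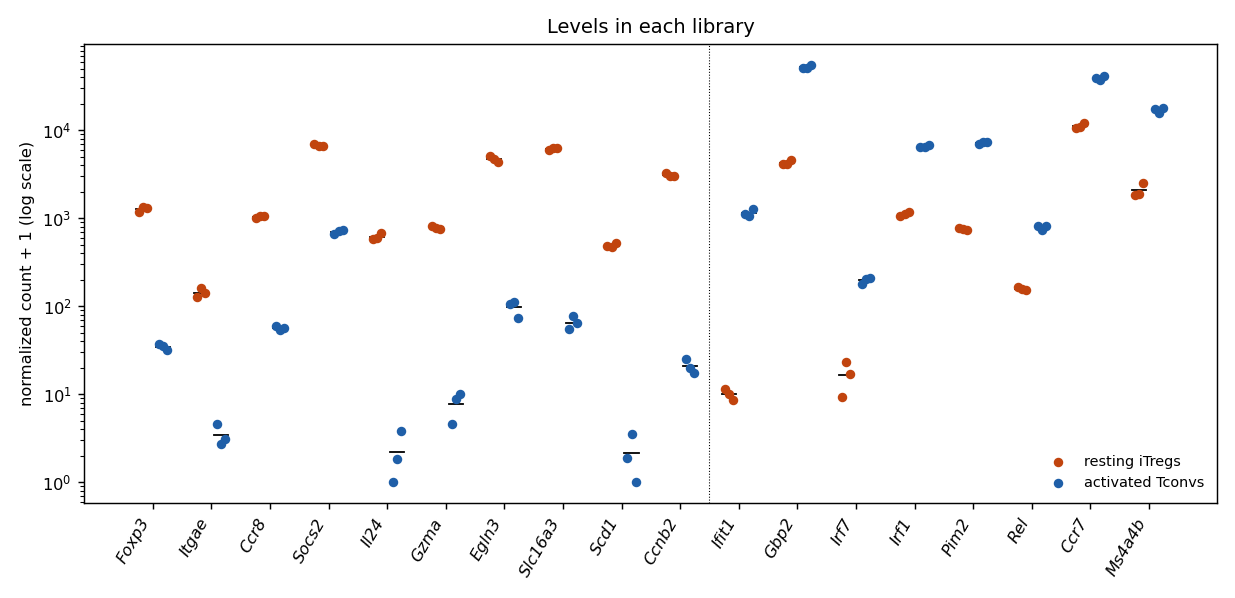
Normalized count + 1 (log axis) of 18 genes in each of the 3 resting iTreg (red) and 3 activated Tconv (blue) libraries; each point is a library and the line is the mean. No gene shown has overlapping groups, a criterion by which most named genes were chosen. Genes left of the dotted line are higher in iTregs, and genes right of it are lower.

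Of 35 tested core Treg genes (36 listed), 23 were higher in resting iTregs, 3 were lower and 9 were not called, with a median log2 difference of 1.43 against 0.02 over all genes. *Foxp3* (chromosome X, 7573644 to 7595245 on GRCm38) stood at 1178, 1338 and 1324 normalized counts in the 3 iTreg libraries and at 35.9, 34.5 and 31.1 in the activated Tconvs. The sort used a reporter of this gene, so this difference checks the labels and is not a finding. *Itgae*, the CD103 integrin chain that holds T cells to epithelium, stood at 128, 159 and 139.6 in iTregs and at 3.59, 1.72 and 2.12 in Tconvs, the latter close to the floor. *Ccr8*, a chemokine receptor of tissue Tregs, had 1020.2, 1056 and 1058 against 58.4, 53.5 and 55.2. The log2 difference was 4.21 ± 0.26 (SE of the fit of 15 libraries, n = 3 per group). The iTreg libraries lay far above the Tconv libraries for all 3 genes.

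*Socs2*, a feedback inhibitor of cytokine signalling, rose from 708 ± 47.0 (SD, n = 3) in activated Tconvs to 6783 ± 218 in resting iTregs, close to the 6551 ± 1181 of activated tTregs. The receptor gene *Gpr83* was 4.35-fold higher, and *Ecm1*, an extracellular matrix protein, was 8.22-fold higher. Both ectoenzymes that turn ATP into adenosine were higher, *Entpd1* (CD39) at 189 ± 17.7 against 24.9 ± 3.57 and *Nt5e* (CD73) at 907 ± 71.2 against 142 ± 15.3. *Il2ra*, the high-affinity IL-2 receptor chain that any activated T cell expresses, was still 2.64-fold higher in iTregs. Its iTreg libraries held 9978, 11697 and 13005 normalized counts and its Tconv libraries 4315, 4290 and 4447. *Ctla4*, the inhibitory receptor that competes with CD28 for its ligands, differed by 1.60 ± 0.16 on the log2 scale.

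Several genes that mark tTregs were not called. *Ikzf2*, which encodes Helios, stood at 171, 141 and 189 normalized counts in resting iTregs and at 146, 119.9 and 146 in activated Tconvs (log2 difference 0.27 ± 0.13, limma adjusted p = 0.0845), while resting tTregs held 9403 ± 901. The TNF receptor genes *Tnfrsf4* (OX40) and *Tnfrsf18* (GITR) differed by 0.09 ± 0.13 and 0.39 ± 0.13, and *Ikzf4* by 0.35 ± 0.09, none past the threshold. *Tigit*, an inhibitory receptor of Tregs, fell from 237 ± 16.7 in Tconvs to 50.6 ± 11.1 in iTregs, and *Itgb8* and *Klrg1* were lower too, both at low levels in both groups. *Itgb8* lost its call without iTreg replicate 1 or Tconv replicate 1. *Klrg1* lost it in 5 of the 6 fits that left out a library (all but that without Tconv replicate 3), with a pseudocount of 0.1 or 5 and with no filter.

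Genes of the TGF-β pathway, the signal added for induction, differed about as often as genes in general. Of 26 tested ligands, receptors and SMADs, 7 were higher (26.9%) and 6 lower (23.1%), near the 22.9% and 18.7% of all genes. Among the receptors, *Tgfbr2*, which binds the ligand, fell from 734 ± 19.6 in activated Tconvs to 379 ± 33.2 in iTregs, and *Tgfbr1*, its signalling partner, stood at 491, 529 and 579.7 against 512, 536 and 517 and was not called. Another type I receptor gene, *Acvrl1*, was 4.86-fold higher, with 409, 389 and 467 in iTregs and 70.9, 97.5 and 91.3 in Tconvs, and so was the co-receptor gene *Eng*, by 6.15-fold. Both were also higher than in each of the other 3 groups of the fit, namely resting Tconvs, resting tTregs and activated tTregs. Of the signal carriers, *Smad3* rose by 0.70 ± 0.09 on the log2 scale. The ligand gene *Tgfb1* rose by 0.65 ± 0.19, a call lost under quantile normalization (adjusted p = 0.0854).

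Of 23 tested genes known to respond to TGF-β, 10 were higher and 3 lower. The kinase gene *Sgk1* stood at 1331, 1289 and 1453 normalized counts in iTregs and 33.2, 31.9 and 39.6 in activated Tconvs, with no overlap. The transcription factor genes *Bhlhe40*, *Id2* and *Klf10* rose 4.01-, 2.49- and 2.05-fold. The inhibitors that TGF-β induces as feedback overlapped between the groups: *Smad7* held 83.3, 71.6 and 76.6 in iTregs and 77.2, 87.1 and 61.6 in Tconvs, and *Skil* 514, 469 and 575 and 638, 570.1 and 577. Their limma adjusted p-values were 0.836 and 0.123. *Tgif1* and *Ski*, both repressors of SMAD-driven transcription, were lower (log2 differences -1.65 and -0.58).

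Genes that interferons switch on were lower in resting iTregs. Of 52 tested interferon-stimulated genes, 39 were lower in resting iTregs and 1 was higher, with a median log2 difference of -1.16. *Ifit1*, whose protein binds viral RNA (chromosome 19, 34640871 to 34650009 on GRCm38), stood at 10.5, 9.08 and 7.59 normalized counts in iTregs and 1129.6, 1054 and 1268 in activated Tconvs. *Ifit3* had 2.11, 1.01 and 3.79, at the floor, against 358, 276 and 349. The master regulator *Irf7* had 8.43, 22.2 and 15.9 against 180.5, 204 and 209, and the groups did not overlap for any of the 3 genes. The log2 differences were -6.84 ± 0.21, -6.72 ± 0.40 and -3.68 ± 0.24. *Usp18*, a brake on the interferon receptor, and *Slfn5* were lower (log2 differences -2.64 and -4.15). The exception was *Isg20*, which encodes an exonuclease and rose 7.75-fold, from 89.0 ± 5.64 to 697 ± 46.5.

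Targets of interferon-γ fell as a block: 17 of 19 tested GBPs, immunity-related GTPases and their regulators were lower in iTregs and none was higher, with 2 not called. *Gbp2*, a GTPase that attacks intracellular pathogens (chromosome 3, 142620602 to 142638008), held 4165, 4136 and 4560.1 normalized counts in iTregs and 51598, 50946 and 55652 in activated Tconvs, 12.3-fold less. *Irf1*, a transcription factor downstream of interferon-γ, held 1051, 1112 and 1187 against 6487, 6406 and 6779. *Gbp10* fell furthest (log2 difference -5.96 ± 0.32). GBPs, *Tgtp1* and *Tgtp2*, and the *Ifit* genes are families of near copies, so reads may be split between members.

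The 2 blocks differed once the other groups were set beside them. For *Ifit1* the iTreg mean was the lowest of the 5 groups, with 172 ± 9.13 in resting Tconvs, 135 ± 33.8 in resting tTregs and 68.1 ± 20.9 in activated tTregs. Of the interferon-stimulated genes, 20 of 52 were called lower in resting iTregs than in each of the other 4 groups, against 9.73% of all genes. For *Gbp2* the activated Tconvs stood above every other group, with 639.8 ± 34.8 in resting Tconvs, 2827 ± 328 in resting tTregs and 5691 ± 1107 in activated tTregs. Only 1 of the 19 GBP and GTPase genes, *Gbp9*, was lower in iTregs than in each of the other 4 groups. *Irf1* followed the pattern of *Gbp2*.

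**Figure D3:**
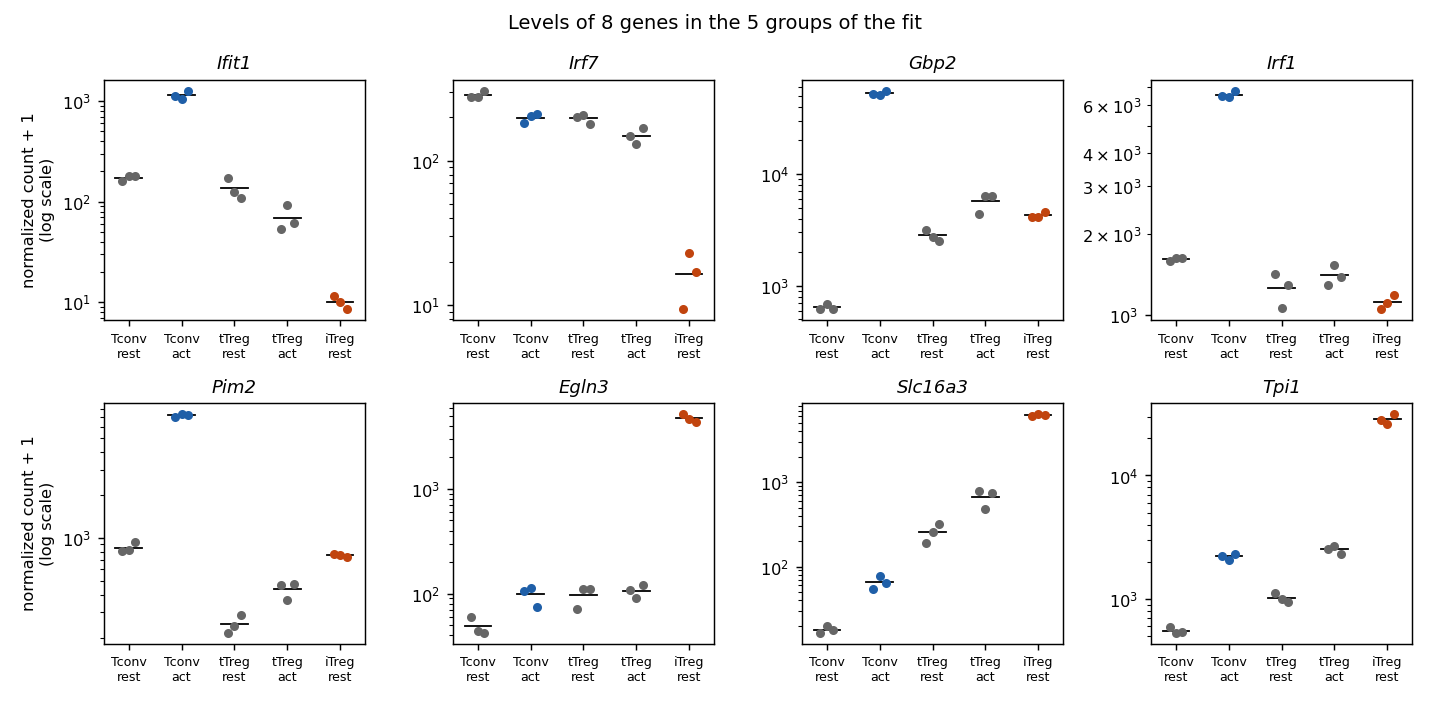
Normalized count + 1 (log axis) of 8 genes in each library of 5 groups, the Tconvs and tTregs at rest and after activation and the iTregs at rest; points are libraries and lines are means of 3. *Ifit1* and *Irf7* are lowest in iTregs, *Gbp2*, *Irf1* and *Pim2* are highest in activated Tconvs, and *Egln3*, *Slc16a3* and *Tpi1* are highest in iTregs.

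Class I presentation followed. Of 24 tested genes, 20 were lower in iTregs and none was higher, with a median of -1.01. They span the inducer *Nlrc5* (-1.14 ± 0.09 on the log2 scale), the peptide transporter gene *Tap1* (-1.11 ± 0.12), the proteasome activator gene *Psme1* (-1.27 ± 0.07) and the non-classical class I gene *H2-T23* (-1.97 ± 0.15). *B2m*, the light chain shared by all class I molecules, stood at 39166, 37149 and 36430.2 in iTregs and 60961, 61241 and 61324 in Tconvs, a smaller but separate pair of groups. Of the 24 genes, 5 were lower in iTregs than in each of the other 4 groups, against 9.73% of all genes. None of the genes just named was among them. The *B2m* mean of 37582 in iTregs lay above 28240 ± 2460 in resting and 22210 ± 4560 in activated tTregs. It lay below 56741 ± 1880 in resting Tconvs. The receptors were mixed. *Ifnar1* (interferon-α/β) and *Ifngr2* were lower (log2 differences -1.25 and -1.20), *Ifngr1* rose by 1.32 ± 0.07, and *Ifnar2* differed by -0.10 ± 0.38 and was not called. *Ifng* itself was near the floor in iTregs, at 2.11, 3.03 and 10.6 normalized counts, and low in Tconvs, at 37.7, 28.5 and 26.2, and its call was lost with a pseudocount of 0.1.

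Promoters of these genes are shown because the members fell together. RefSeq promoter windows (GRCm38.p6, 250 bases before to 50 after the start) matched 9121 of the tested genes, with 11683 windows. The ISRE core GAAANNGAA, on either strand, lay in 24 of 50 windows of tested interferon-stimulated genes (48%), in 11 of 14 windows of the GBP and GTPase list (78.6%) and in 7.2% of all windows. The motif TTCNNNGAA, which STAT dimers bind, lay in 50% of the GBP and GTPase windows, 14% of those of interferon-stimulated genes and 6.89% of all. Over all genes called lower the ISRE core lay in 10.8% of windows, and over those called higher in 6.04%. More motifs were searched for than are printed. The NFAT motif GGAAAA lay in 44% of interferon-stimulated, 21.4% of GBP and GTPase and 20.6% of all windows. The letters CCAAT lay in 71.4% of class I presentation windows and 38.2% of all. The 150 bases before the start follow for *Ifit1*, *Ifit3* and *Gbp2*, with ISRE cores in capitals. They were chosen among promoters with a match, and the 300-base window of *Irf7* held none.
Ifit1 (chr19:34640739-34640888, plus strand): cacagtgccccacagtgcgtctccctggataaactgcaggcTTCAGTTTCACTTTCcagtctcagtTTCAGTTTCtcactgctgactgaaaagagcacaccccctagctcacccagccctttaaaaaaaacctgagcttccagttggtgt
Ifit3 (chr19:34583379-34583528, plus strand): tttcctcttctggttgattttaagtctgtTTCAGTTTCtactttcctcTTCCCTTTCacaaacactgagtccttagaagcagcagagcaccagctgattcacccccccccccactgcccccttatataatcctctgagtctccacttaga
Gbp2 (chr3:142620513-142620662, plus strand): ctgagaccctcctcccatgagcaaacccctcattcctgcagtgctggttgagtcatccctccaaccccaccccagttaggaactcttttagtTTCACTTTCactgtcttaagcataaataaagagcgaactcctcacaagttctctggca

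Hypoxia-linked genes rose in resting iTregs. Of 31 tested (32 listed), 25 were higher and none was lower, and 21 were higher than in each of the other 4 groups, against 12.4% of all genes. *Egln3*, an oxygen sensor that marks HIF for breakdown (chromosome 12, 54178981 to 54203860), stood at 5160.2, 4687 and 4347 normalized counts in iTregs and 106, 112 and 73.6 in activated Tconvs. *Bnip3*, which directs mitochondria to autophagy, had 5058, 4733 and 4798 against 120.3, 103 and 105. The collagen hydroxylase gene *P4ha2* had 387, 326 and 441 against 5.39, 6.90 and 4.25. These 3 genes were 48.9-, 44.1- and 59.6-fold higher on the log2(value + 1) scale, and no library of one group reached the other. *Ak4*, a mitochondrial adenylate kinase, rose by 6.03 ± 0.32.

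Glycolysis moved with them: 20 of 28 tested genes were higher and 2 lower, with a median log2 difference of 1.49. The steps ran from uptake to export. The glucose transporter genes *Slc2a1* and *Slc2a3* were 5.42- and 13.8-fold higher, hexokinase 2 (*Hk2*) 6.68-fold, *Tpi1* 12.9-fold, *Pgk1* 3.76-fold, *Pkm* 4.16-fold and *Ldha* 3.92-fold. The lactate exporter gene *Slc16a3* (chromosome 11, 120948480 to 120960868) rose most, with 6006, 6339.7 and 6242 in iTregs and 53.9, 75.9 and 63.7 in Tconvs. *Gapdh*, often used as a reference gene, stood at 49373, 55724 and 56302 and 23384, 23983 and 24755 (log2 difference 1.16 ± 0.11). The 2 members that fell were *Pdk2*, which holds back pyruvate dehydrogenase (-1.35 ± 0.27), and *Ldhb*, the lactate dehydrogenase chain that favours pyruvate (-0.68 ± 0.14).

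Other metabolic lists were less uniform. Of 31 TCA cycle and linked genes, 3 were higher and 6 lower; pyruvate carboxylase (*Pcx*) rose 27.5-fold, while *Sdha*, a subunit of succinate dehydrogenase, fell by 0.72 on the log2 scale. All 13 genes encoded by mitochondrial DNA were tested, 7 were lower and none was higher. Of 27 genes of fatty acid oxidation, 8 were higher and 6 lower. Fatty acid synthesis stood apart, with 8 of 15 higher and 1 lower. *Scd1*, the desaturase that makes monounsaturated fats (chromosome 19, 44394455 to 44407879), had 479.6, 470.1 and 519.7 normalized counts in iTregs and 0.898, 2.59 and 0 in Tconvs, the latter at or under the floor. *Fads2*, which desaturates polyunsaturated fats, had 360.5, 427 and 376 against 3.59, 6.90 and 2.83, and fatty acid synthase (*Fasn*) was 2.93-fold higher.

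The HRE core ACGTG, on either strand, lay in 20 of 36 windows of tested hypoxia-linked genes (55.6%), in 47.5% of 40 glycolysis windows and in 25.7% of all. These letters also lie inside the E-box CACGTG, which 11.1% of hypoxia-linked windows and 10% of all windows held. Another motif, the GC box GGGCGG, lay in 86.1% of hypoxia-linked windows, 55% of glycolysis windows and 62.3% of all. The HRE core was searched for after these lists had been counted. *P4ha2*, *Slc16a3* and *Bnip3* are shown with HRE cores in capitals, where matches on both strands that overlap run together. They too were chosen for a match: in the 150 bases before the start, *Egln3* and the 4 promoters of *Ak4* held none. In 300 bases *Egln3* held 1, promoter 4 of *Ak4* held 2 and the other *Ak4* promoters held none.
P4ha2 (chr11:54100774-54100923, plus strand): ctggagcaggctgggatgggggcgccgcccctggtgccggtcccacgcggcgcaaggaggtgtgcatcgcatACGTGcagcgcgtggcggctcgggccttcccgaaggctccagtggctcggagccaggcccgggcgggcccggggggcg
Slc16a3 (chr11:120948917-120949066, plus strand): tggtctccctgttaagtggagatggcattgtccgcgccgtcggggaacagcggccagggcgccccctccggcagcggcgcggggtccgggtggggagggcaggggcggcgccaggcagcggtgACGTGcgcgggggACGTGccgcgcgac
Bnip3 (chr7:138909507-138909656, minus strand): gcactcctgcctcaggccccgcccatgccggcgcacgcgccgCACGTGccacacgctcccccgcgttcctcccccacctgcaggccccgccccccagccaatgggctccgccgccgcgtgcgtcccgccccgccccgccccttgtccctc

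Most genes of cell division were higher. Of 70 genes of mitosis and the kinetochore, 69 were higher and 68 were higher than in each of the other 4 groups. The mitotic cyclin gene *Ccnb2* stood at 3315, 3068 and 3043 normalized counts in resting iTregs and 24.2, 19.0 and 16.3 in activated Tconvs. The member that fell was the condensin gene *Smc4* (log2 difference -0.59 ± 0.13), a call lost without iTreg replicate 3 (difference -0.47). In bulk libraries a larger share of cycling cells and more of these RNAs per cell cannot be told apart. Genes of DNA replication were higher in 40 of 57 cases and lower in none, with a smaller median (0.76 against 3.83). Ribonucleotide reductase subunit *Rrm2* led them at 14.5-fold. Histone genes were higher in 46 of 60 cases and lower in 2. Most histone messages lack a poly(A) tail and the copies are near identical, so these values are uncertain.

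The regulators of the cycle did not all point one way. Among 33 tested G1 cyclins, E2F factors and CDK inhibitors, 21 were higher and 2 lower. *Ccnd3* rose from 3123 ± 264 to 10397 ± 1451, whereas *Ccnd2* fell from 14598 ± 475 to 9447 ± 329.8, a call lost under quantile normalization. The CDK inhibitor *Cdkn1a* (p21), a brake on the cycle and a p53 target, rose 8.70-fold, and the repressor *E2f8* rose 20.9-fold. In the MYC network, *Myc* stood at 4809, 4872 and 5122 and 3384, 3491 and 3539; its difference of 0.51 ± 0.15 passed the threshold narrowly and missed it under 3 other scalings, by edgeR and DESeq2, and without iTreg replicate 3 or Tconv replicate 1. Its antagonist *Mxd3* rose 47.5-fold. The CCAAT box lay in 76.9% of 65 mitosis windows against 38.2% of all. The cell cycle homology region (CHR, TTTGAA), bound by complexes that hold mitotic genes silent until G2, lay in 63.1% against 12.2%. The E2F motif TTTCCCGC lay in 12.5% of 56 windows of DNA replication genes and 2.09% of all. *Ccnb2* and *Cenpf* are shown with CCAAT boxes (ATTGG on the opposite strand) in capitals.
Ccnb2 (chr9:70421555-70421704, minus strand): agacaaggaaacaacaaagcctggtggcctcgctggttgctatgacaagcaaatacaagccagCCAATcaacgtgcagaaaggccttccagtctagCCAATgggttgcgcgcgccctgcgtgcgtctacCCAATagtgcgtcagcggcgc
Cenpf (chr1:189688087-189688236, minus strand): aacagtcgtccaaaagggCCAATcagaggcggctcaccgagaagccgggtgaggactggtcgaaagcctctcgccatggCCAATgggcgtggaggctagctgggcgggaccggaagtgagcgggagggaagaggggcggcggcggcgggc

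**Figure D4:**
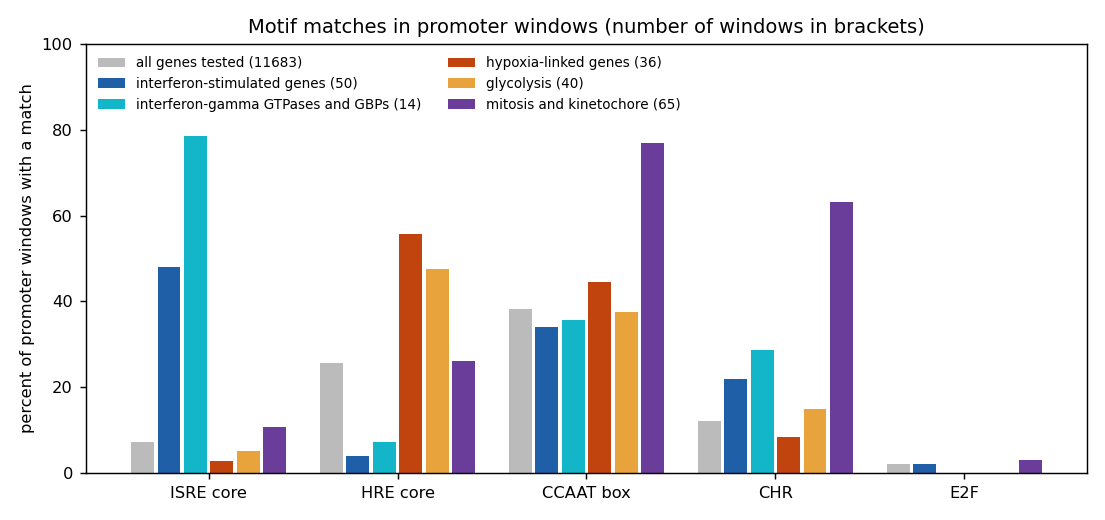
Percent of RefSeq promoter windows (300 bases) that hold a match to each of 5 motifs on either strand, for all tested genes and for 5 lists; the number of windows is in brackets. The ISRE core is most frequent in the interferon lists, the HRE core in hypoxia-linked genes and glycolysis, and the CCAAT box and CHR in mitosis genes.

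Genes that follow a TCR signal were lower more often than higher. Of 33 tested immediate response genes, 13 were lower in resting iTregs and 6 were higher. *Cd69*, an early activation receptor, stood at 695, 712 and 869 normalized counts in iTregs and 2279, 2125 and 2356 in activated Tconvs. *Nr4a1* and *Nr4a3*, nuclear receptors that track TCR strength, stood at 40.1 ± 4.20 and 21.9 ± 7.74 against 65.5 ± 5.80 and 111 ± 6.77, low in both groups. *Irf4*, induced in proportion to the signal, was at 2861, 3220.3 and 3661 against 4186, 4235 and 4507; the libraries did not overlap, but the difference of -0.41 ± 0.16 was under the size threshold of 0.5, which it passed under quantile normalization and without iTreg replicate 3. *Batf*, its AP-1 partner, stood at 691 ± 32.8 and 682 ± 42.6. *Batf3*, a relative of *Batf*, went the other way, at 577, 562 and 453 against 8.98, 9.49 and 18.4. Transcripts of *Il2* were at or near the floor in both groups, with 3.16, 2.02 and 1.52 in iTregs and 2.69, 3.45 and 3.54 in Tconvs, and were not tested.

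NF-κB genes fell: 15 of 24 tested were lower and 2 higher, with a median of -0.68, and 10 were lower than in each of the other 4 groups. *Rel*, the c-Rel subunit that Treg development depends on, stood at 163, 156 and 151 normalized counts in iTregs and 825, 743 and 825 in activated Tconvs, while activated tTregs held 3973 ± 456. Its inhibitors *Nfkbia* and *Tnfaip3* (A20), themselves targets of NF-κB, were lower (log2 differences -1.45 and -1.76), and the kinase gene *Ikbke* fell by 2.33 on the log2 scale. Of 39 genes of the TCR complex and its first signals, 11 were lower and 4 higher. *Cd247*, the signalling chain of the receptor, had 2021, 2097 and 2291 against 6345, 6419 and 6917. The groups did not overlap, and the gene was lower in iTregs than in each of the other 4 groups.

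The calcium pathway was mixed, with 12 of 32 tested NFAT and calcium entry genes higher and 3 lower, or 8 and 6 under quantile normalization and 10 and 5 under TMM scaling. The entry channel and its sensors were close: *Orai1*, *Stim1* and *Stim2* differed by -0.45 ± 0.18, 0.09 ± 0.12 and 0.26 ± 0.16 on the log2 scale, none called. *Orai3* rose by 0.56 ± 0.12. Under quantile normalization or TMM scaling *Orai1* was called lower and *Orai3* was not called, and *Orai1* was also called lower without iTreg replicate 2 or Tconv replicate 1. The genes *Calm2* and *Calm3* of calmodulin, which passes calcium to calcineurin, rose by 1.16 ± 0.14 and 1.35 ± 0.19. Of the NFAT factors, *Nfatc2* rose 3.37-fold, from 265, 226 and 224 to 832, 730.4 and 849, and *Nfatc1* stood at 719 ± 21.9 and 645 ± 14.1. The calcium pump *Atp2b4* rose 10.1-fold. The potassium channel *Kcna3*, which sustains entry, fell from 122 ± 6.71 to 24.7 ± 3.22, and the store channel *Itpr2* fell by 0.85.

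Effector genes split. Of 19 cytokine and chemokine genes that passed the filter (33 listed), 9 were higher in iTregs and 6 lower, and 6 were higher than in each of the other 4 groups. *Il24*, a cytokine of the IL-10 family (chromosome 1, 130882074 to 130887454), stood at 579.7, 600.3 and 673 normalized counts in iTregs and 0, 0.862 and 2.83 in activated Tconvs, at or under the floor, and at 2835 ± 205 in restimulated iTregs. *Lif* stood at 1138, 1202 and 1328 against 95.2, 91.4 and 107, and *Il21* at 219, 255 and 250.4 against 29.6, 31.9 and 31.1. *Il10* was called but low, at 32.6 ± 3.81 and 9.18 ± 1.23, and was not called under quantile normalization or with a pseudocount of 0.1. The chemokine genes *Cxcl10* and *Ccl5* were lower, at 1.87 ± 1.03 and 32.8 ± 3.41 in iTregs and 22.4 ± 6.88 and 151 ± 15.5 in Tconvs. *Tnf* stood at 506, 463 and 486 and 576, 499 and 521, which overlap.

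Cytotoxic granule genes also split, with 6 of 18 tested higher and 4 lower. Granzyme A (*Gzma*, chromosome 13, 113093825 to 113100981) stood at 813, 784 and 766 normalized counts in resting iTregs and 3.59, 7.76 and 9.20 in activated Tconvs. Granzyme B (*Gzmb*) had 8813, 8693 and 9899 against 1127, 1001 and 1199 and was 8.24-fold higher, and *Nkg7*, a granule membrane protein, was 9.27-fold higher. All 3 were higher than in each of the other 4 groups. The pore protein perforin (*Prf1*) went down instead, to 14.8, 11.1 and 8.35 from 47.6, 50.0 and 41.7, and *Serpinb9*, which shields a cell from its own granzyme B, fell 9.44-fold, from 1351 ± 117 to 142 ± 8.45.

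Among 24 tested transcription factors of helper lineages, 10 were higher and 4 lower. *Maf*, *Nfil3* and *Runx3* were 5.20-, 12.1- and 3.00-fold higher. On the Th1 side, *Tbx21* stood at 83.3, 98.9 and 54.6 against 159.8, 236 and 120.3. It was not called (difference -1.10 ± 0.61, limma adjusted p = 0.141). It was called by edgeR, by DESeq2, under quantile normalization and with a pseudocount of 5. It was also called in the limma fit on the 6 libraries alone, where the difference was -1.10 ± 0.28. *Eomes* fell from 293 ± 14.6 to 43.3 ± 0.948, a call lost with a pseudocount of 0.1, and *Irf8* from 2091 ± 372 to 749.9 ± 143. *Gata3*, of Th2 cells, and *Bcl6*, of follicular helper cells, differed by -0.25 ± 0.12 and 0.34 ± 0.21 and were not called.

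Of 22 STAT, JAK and SOCS genes of cytokine signalling, 6 were lower (27.3%, beside 18.7% of all genes) and 2 higher (9.09%, beside 22.9%). *Stat4*, which carries IL-12 signals, fell from 1544 ± 68.8 to 466 ± 10.3, and *Stat5a*, which carries IL-2 signals, from 3322 ± 39.7 to 1158 ± 16.6, while its twin *Stat5b* stood at 1269 ± 62.4 and 1210.1 ± 94.5. *Jak3*, the kinase of the common gamma chain, rose 2.13-fold. Targets of IL-2 did not move as one: *Pim2*, a survival kinase, had 768, 759.7 and 729 normalized counts in iTregs and 7064, 7331 and 7313 in Tconvs, whereas *Cish* differed by -0.31 ± 0.07 and *Il2rb* by 0.38 ± 0.09, neither called. *Il15ra* fell by 2.28 on the log2 scale and *Il7r* rose by 0.78 ± 0.12.

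Inhibitory receptors were lower in 8 of 18 tested cases and higher in 5. *Cd274*, the ligand PD-L1 and an interferon target, stood at 213, 204 and 219 in iTregs and 997, 1002 and 1114 in Tconvs, and *Lag3* at 613 ± 27.6 and 1457 ± 21.1. *Pdcd1* (PD-1) was not called, at 227 ± 41.0 and 174 ± 13.7. Of the TNF receptor and CD28 family, 7 of 18 were higher and 7 lower. *Tnfrsf8* (CD30) had 1373, 1565 and 1579 against 60.2, 68.1 and 65.1, and *Tnfrsf9* (4-1BB) was 2.70-fold higher. The death receptor *Fas* and the costimulator *Cd27* were lower (log2 differences -1.50 and -0.90).

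Homing receptors changed in kind, with 11 of 26 higher and 9 lower. *Ccr4*, which guides T cells to skin and other tissues, had 2829.9, 2877 and 3122 normalized counts in iTregs and 270.3, 264 and 271 in Tconvs, and *Cx3cr1* had 114, 119 and 140.4 against 3.59, 0.862 and 1.42. *Ccr7*, which guides T cells to lymph nodes, went the other way, with 10730.3, 10814 and 12309 against 39850, 37680.1 and 41895. *Itga4*, an integrin chain for inflamed vessels, fell 5.00-fold. Naive and quiescence genes, which include *Ccr7*, were lower in 17 of 28 cases and higher in 5, and 11 were lower than in each of the other 4 groups. *Tcf7*, the TCF-1 factor of naive and memory cells, fell from 3436 ± 111 to 709 ± 39.8.

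Structural and surface genes rose in iTregs. Of 25 S100, galectin, annexin and related genes, 18 were higher and 5 lower. The intermediate filament *Vim* stood at 33939.5, 34919.7 and 32458 normalized counts against 1441, 1538 and 1477, and galectin-1 (*Lgals1*), which can restrain T cells, at 20801, 19263 and 17941 against 1419, 1584 and 1504. Semaphorins and plexins were higher in 10 of 12 cases, among them *Sema7a* at 3.69-fold. Of 10 retinoid and vitamin D genes, 5 were higher and none lower, with *Rara*, the retinoic acid receptor α, at 439 ± 92.9 against 113 ± 36.6 and the retinol dehydrogenase gene *Rdh10* 6.24-fold higher. The metallothionein *Mt1* rose 22.2-fold and the transferrin receptor *Tfrc* 4.50-fold. Genes of serine synthesis, one-carbon metabolism and the factor ATF4 were higher in 17 of 37 cases and lower in 3, including *Asns* (1.24 ± 0.20 on the log2 scale), and unfolded protein response genes in 11 of 30, with 1 lower.

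MS4A genes led the falls among killer lectin, MS4A and NK-type receptors, of which 10 of 18 were lower and 1 higher. *Ms4a4b*, a membrane protein that tunes T cell signalling, had 1868, 1899.7 and 2549 in iTregs and 17559, 15707 and 18127 in Tconvs, and *Ms4a4c* and *Ms4a6b* were lower (log2 differences -4.33 and -2.15). In the BCL2 family 7 were higher and 7 lower: the survival genes *Mcl1* and *Bcl2l1* were lower (log2 differences -1.20 and -1.02), and *Bcl2* stood at 5778 ± 394 and 4976 ± 281. *Cblb*, a ubiquitin ligase that damps TCR signals, fell by 1.74, and the ligase *Nedd4* rose 10.8-fold. Ribosomal protein genes were lower in 30 of 81 cases and higher in 1, by a median of -0.42, but 7 were lower under quantile normalization and 39 under TMM scaling. Genes that assemble ribosomes were close to even, with 6 higher and 7 lower of 64.

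DNA methylation holds Treg genes such as *Foxp3* silent in conventional T cells. Of 19 tested genes that add or remove it, 6 were higher and 5 lower. *Dnmt1*, which copies methylation onto new DNA, stood at 3944, 4044 and 4299.9 normalized counts in iTregs and 2394, 2283 and 2376 in activated Tconvs, and its guide *Uhrf1* at 4084, 4173 and 4582 against 1652, 1447 and 1695. The enzyme of new methylation, *Dnmt3a*, fell from 589.9 ± 33.4 to 336 ± 28.7. The demethylases *Tet1* and *Tet3* were lower too, at 52.7 ± 5.86 and 518 ± 50.2 against 83.1 ± 3.51 and 829.9 ± 7.23. The stress genes *Gadd45g* and *Gadd45b*, linked to demethylation, went opposite ways, at 651 ± 53.4 and 125 ± 9.58 against 97.7 ± 14.1 and 586 ± 45.0. Of 56 histone modifiers and remodellers, 10 were higher and 9 lower, with *Kdm6b*, which removes a repressive histone mark, at 4.10-fold and *Kmt2a*, which adds an active one, at a log2 difference of -1.14 ± 0.07.

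Feedback on MAPK signals was higher in 8 of 17 tested genes and lower in 3. *Spry2*, an inhibitor of receptor signalling to RAS, had 26.3, 24.2 and 24.3 against 0, 0.862 and 2.12, and the ERK phosphatase *Dusp6* was 3.69-fold higher, while *Dusp10* and *Dusp5* were lower (log2 differences -3.29 and -0.65). In the PI3K pathway, 6 of 31 were higher and 8 lower. *Foxo1*, a factor that PI3K signals switch off and that drives *Ccr7* and *Klf2*, fell from 1454 ± 109 to 861 ± 82.2, and *Klf2*, a quiescence and exit factor, from 206, 203 and 182 to 114, 71.6 and 86.5. *Ddit4*, a brake on mTOR, rose 4.35-fold. Of 16 ligases and kinases of anergy, 6 were lower and 3 higher, and the lowest, *Dtx1*, had 8.43, 6.05 and 3.04 against 31.4, 28.5 and 30.4.

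Adenosine and ATP genes beyond CD39 and CD73 also differed, with 8 of 15 higher and 3 lower. The adenosine receptor *Adora2b* had 84.3, 86.8 and 75.1 normalized counts in iTregs and 1.80, 1.72 and 0 in Tconvs, and the ATP-gated channel *P2rx7* was 3.22-fold higher. *Art2b*, an enzyme that modifies P2RX7, fell from 239.8 ± 45.6 to 69.1 ± 20.9. Integrin and adhesion genes were higher in 10 of 25 cases and lower in 5. *Itgb5*, which can pair with the αv chain that activates TGF-β, had 46.4, 28.2 and 27.3 against 0, 0.862 and 1.42, and *Itgb3*, the other common partner of αv, 326, 344 and 371 against 815, 844 and 832. *Fut7*, which makes selectin ligands, was 12.7-fold higher, and *Icam1* differed by -0.75 ± 0.11.

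Targets of p53 were higher in 13 of 27 cases and lower in 5, with the death genes *Perp* and *Pmaip1* at 5.64- and 4.68-fold and *Sesn1* at a log2 difference of -0.73 ± 0.10. DNA repair genes were higher in 21 of 40 cases and lower in 3. The glycosylase *Neil3* led them, with 375, 342 and 412 against 11.7, 14.7 and 16.3. In purine and pyrimidine synthesis 9 of 25 were higher and 2 lower, with the salvage kinase *Dck* at 2.43-fold. Receptors of polarizing cytokines were lower in 5 of 20 cases (25%, beside 18.7% of all genes) and higher in 1 (5%, beside 22.9%). Under quantile normalization 10 were lower, and under TMM scaling 8. *Il6st*, the signalling chain for IL-6, fell from 575 ± 12.5 to 236 ± 33.4, and *Il4ra* from 11030 ± 154 to 7579 ± 198. GIMAP GTPases, which support survival of naive T cells, were lower in 5 of 8 cases and higher in none, with *Gimap6* at 3666, 3784 and 4833 against 12056, 10777 and 12822.

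**Figure D5:**
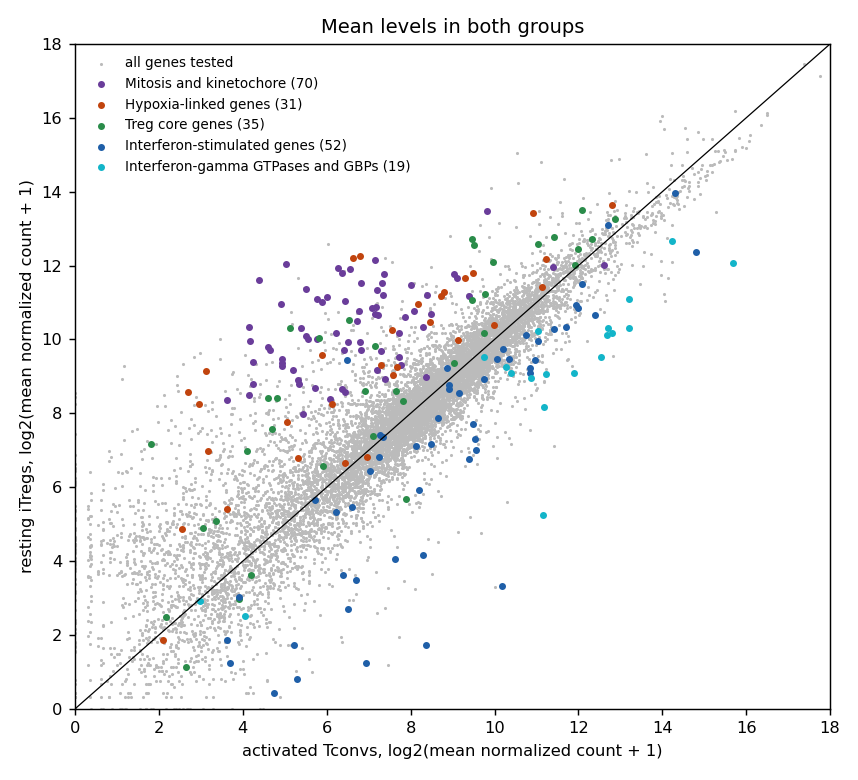
Mean levels, log2(mean normalized count + 1), in activated Tconvs (x) and resting iTregs (y); grey points are the 11495 genes tested, colored points are members of 5 lists and the line marks equal levels. Mitosis, hypoxia-linked and most Treg genes lie above the line, and the interferon lists lie mostly below it.

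The comparison with activated Tconvs alone does not separate an iTreg trait from a Tconv trait, so each gene was also tested against resting Tconvs, resting tTregs and activated tTregs. In resting iTregs 1421 genes (12.4%) were higher, and 1119 (9.73%) lower, than in each of the other 4 groups. The leading genes were at or near 0 in these 4 groups, but not in the restimulated iTregs, which were not part of the fit. *Gap43*, a growth cone protein of neurons, stood at 326, 306 and 493 normalized counts in iTregs and at 0 in all activated Tconv libraries, at least 139-fold higher given the floor of 3 reads per library, and at 477 ± 77.6 in restimulated iTregs. *Vldlr*, a lipoprotein receptor, stood at 357, 331 and 344 (401 ± 50.3 after restimulation) and was at least 127-fold higher, and the cytoskeletal gene *Shroom3*, at 182, 153 and 179.8, at least 63-fold. *Il24*, *Scd1* and *Fads2*, given above, were among the 10 furthest above every other group. Serpin *Serpinf1* had 285, 273 and 313 against 2.69, 2.59 and 4.95 in Tconvs. *Lama5*, a laminin chain, also rose, from 4.92 ± 0.972 to 650.3 ± 85.7, but resting tTregs held 677 ± 82.9, next to the iTreg level.

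Genes lowest in iTregs were led by the interferon-inducible *Ifi200* cluster, DNA sensors and related proteins whose copies are alike. *Ifi208* had 0, 0 and 3.79 normalized counts in iTregs and 187, 157 and 183 in activated Tconvs, *Ifi214* 3.16, 3.03 and 2.28 against 209, 189.7 and 228, and *Ifi209* 33.7, 38.3 and 71.3 against 1271, 1190.2 and 1326. In resting Tconvs the *Ifi208* mean was 2833 ± 162. *Cd7*, a surface receptor of T cells, had 4.22, 11.1 and 7.59 against 112, 106 and 91.3, and the sialyltransferase gene *St8sia6* 12.6, 12.1 and 11.4 against 148, 127 and 153, with 4005 ± 170.4 in resting Tconvs. *Lad1* was different: it had 10.5, 7.06 and 9.11 in iTregs and 989, 1086 and 1044 in activated Tconvs, but only 1.28 ± 1.42 in resting Tconvs.

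Gene sets were also picked without the 6 libraries, from other groups of the series. Resting tTregs exceeded resting Tconvs in 2143 of 10736 genes (20.0%) and fell below them in 1997 (18.6%). Of the former, 780 were higher and 327 lower in resting iTregs than in activated Tconvs (median 0.24), and of the latter 296 were higher and 591 lower (median -0.18). The larger part of each set, 1036 and 1110 genes, was not called. Activation of tTregs raised 953 of 10814 genes (8.81%) and lowered 754 (6.97%). Resting iTregs were higher for 432 and lower for 131 of those raised, and higher for 112 and lower for 291 of those lowered. The medians were 0.41 and -0.31.

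Genes that changed under blockers of the calcium pathway were taken from restimulated iTregs. Whether they depend on calcium entry itself was not tested. CsA, which blocks calcineurin, lowered 163 and raised 163 of 10872 genes (1.50% each). Of those lowered and tested here, 82 of 154 were higher in resting iTregs than in activated Tconvs and 27 lower (median 0.93). Of those raised, 83 of 157 were higher and 41 lower (median 0.67). The ORAI inhibitor lowered 199 of 10853 genes (1.83%) and raised 149 (1.37%). Here 116 of 192 lowered genes were higher and 25 lower (median 1.24), and 72 of 147 raised genes were higher and 39 lower (median 0.53). As shares of the sets tested, those higher came to 53.2% and 52.9% for CsA and 60.4% and 49% for the ORAI inhibitor, beside 22.9% of all genes. Every gene of these sets was expressed in restimulated iTregs, which all genes tested were not.

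Both groups carried T cell transcripts and little of other lineages, as far as markers of these were among the deposited genes. The summed T cell markers ran from 27130 to 29890 normalized counts in iTregs and 37420 to 40670 in Tconvs, and those of CD8 T cells from 99.1 to 122 and 109.5 to 123. B cell markers summed to 31.9 to 44.3 and 20.6 to 31.1, with *Ms4a1* (CD20) at 0 in all 6 libraries. Only 7 of 10 listed B cell markers, and 3 of 7 of NK and gamma-delta T cells, were among the deposited genes. The latter summed to 24.2 to 31.3 in iTregs and 15.3 to 23.3 in Tconvs. Erythroid and platelet markers summed to 28.1 to 33.3 and 8.98 to 14.7. The 18 myeloid and dendritic markers summed to 874 to 1025 in iTregs and 506 to 590.1 in Tconvs, with 10 of 18 under 3 reads in every library of each group and *Lyz2*, *Cd14* and *Siglech* at 0. *H2-Ab1*, the β chain of an MHC class II molecule, made up most of the iTreg sum. It stood at 623, 662 and 633 in iTregs and 20.7, 17.2 and 29.0 in Tconvs, while its partner α chain *H2-Aa* had 21.1, 11.1 and 21.2 and 19.8, 22.4 and 20.5, and *Ciita*, the activator of class II genes, fell from 15.7 ± 3.15 to 4.66 ± 2.38, a call lost without iTreg replicate 1.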

How the data were processed

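Live T cells were sorted and their RNA was made into libraries by a modified SMART-seq2 protocol, which amplifies cDNA by PCR without molecular identifiers, so that floors in reads cover counting error only. The authors trimmed reads with Cutadapt 1.18, aligned them to mm10 with STAR 2.5.3, counted genes with RSEM 1.3.0 against GENCODE GRCm38 and normalized with DESeq2 1.26. The deposited signal values, for 21950 genes in 24 libraries, are counts divided by 1 size factor per library. All values were whole multiples of what 1 read was worth (100%, tolerance 0.01), from which reads were recovered. The other samples of the series, of ATAC-seq and CUT&Tag, were not analysed here.

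Groups were taken from the sample titles. limma 3.58.1 (R 4.3.3) was fitted, with a trend and Benjamini-Hochberg adjustment, to log2(value + 1) of 15 libraries (resting iTregs, and resting and activated Tconvs and tTregs), over 11495 genes with a value of at least 10 in at least 3 libraries. A gene was higher or lower than each of the other 4 groups when all 4 contrasts were called in that direction. On simulated data of this comparison (11495 genes) the fit called 92 of 100 genes changed by a log2 of 1, 99 of 100 changed by 2 and 5 of 11295 unchanged genes. The changed genes were drawn from genes that were not low, with as many raised as lowered. All other genes were left unchanged, whereas 41.6% of genes were called in the real data. These rates therefore cannot be carried over to low genes or to so wide a difference. edgeR 4.0.16 and DESeq2 1.42.0 were run on the recovered reads as alternatives.

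Members and the 72 gene lists were chosen with earlier results of these data known. Named were, in each list, up to 3 called members in each direction with the largest differences, libraries that did not overlap and a mean of at least 100 in the higher group, the 10 largest differences in each direction over all genes and against all 4 groups under the same criteria, and 25 genes fixed by name, which came to 341 genes, of which a part is printed; a few are not reported here. A further 67 list members were named after their values were seen. Gene positions are from a GENCODE annotation of GRCm38, in which 21685 genes were matched.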

Additional observations from a re-analysis of the deposited data

How the results depend on the processing

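Between 4349 and 4620 genes were called when 1 library of either group was left out (2309 to 2520 higher and 2009 to 2151 lower), and 1178 to 1391 genes were higher and 1030 to 1167 lower than in each of the other 4 groups. With a log2 difference over 1 in place of 0.5 as the threshold, 2566 genes were called, 1649 higher and 917 lower, and 865 were higher and 469 lower than in each of the other 4 groups. Scaling moved the split: 2371 genes were higher and 2511 lower under TMM scaling and 2095 and 2835 under quantile normalization. edgeR on the recovered reads called 4861 genes and DESeq2 called 4794. A filter of 100 in place of 10 left 3581 calls, no filter gave 5246 and the adjusted p alone 6311. With a pseudocount of 0.1 there were 4666 calls, with 5 there were 4744, in a fit of the 6 libraries alone 4771 and of all 24 libraries 4991. No named gene that was called changed direction under any of these alternatives. Calls of named genes were counted only over the alternatives that kept both thresholds, with the block fit below among them. There 7148 of the values of named genes kept their side of the threshold, 54 were no longer called and 11 became called. The cause was not tested. The threshold of 1 and the adjusted p alone were not part of this count. Fold thresholds apart, precision for low genes is limited by depth, since 3 reads were worth 2.12 to 3.16 normalized counts.

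Replicate numbers are shared between groups in the labels, but the deviations of resting iTreg and activated Tconv libraries of the same number correlated by 0.0385, 0.188 and 0.244 over 11495 genes, so the numbers were not taken to pair the samples. With the replicate number as a block, 4742 genes were called, 2612 higher and 2130 lower, and 1410 genes were higher and 1110 lower than in each of the other 4 groups. As a hint from the data and not the design, 6 of 6 libraries correlated best with the library of their own number in the other group.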
